A study of Mus musculus with 44 samples.

Results

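The genes described here encode the conjugating enzymes of mouse liver, in 3 families: the cytosolic sulfotransferases (Sult), the UDP-glucuronosyltransferases (Ugt) and the soluble glutathione transferases (Gst). Members were taken by gene symbol, pseudogene symbols left out. The rule uses no measured value, though the families were chosen with earlier results of these data known. They numbered 60 of the 35249 genes of the count table, namely 18 Sult, 20 Ugt and 22 Gst genes. Of these, 46 reached 10 or more counts in at least 3 libraries and are called expressed (10 Sult, 16 Ugt and 20 Gst genes). The unexpressed genes were Gsto2, Gstt4, Sult1c1, Sult2a2, Sult2a3, Sult2a5, Sult3a1, Sult4a1, Sult6b1, Sult6b2, Ugt1a10, Ugt1a2, Ugt1a8 and Ugt2a1. A further filter on low counts left 45 members for testing and removed Sult2a1, a hydroxysteroid sulfotransferase gene, 61 of whose 129 counts came from the library Ripk3KO CD-LFD replicate 3.

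These enzymes attach a polar group to hormones, bile acids, bilirubin, drugs and reactive oxidation products. Sulfotransferases transfer sulfate from the activated donor PAPS, Ugt enzymes transfer a sugar, mostly glucuronic acid from UDP-glucuronic acid, and glutathione transferases join glutathione to electrophiles. The conjugates leave the hepatocyte through membrane transporters, and nuclear receptors and the stress factor NRF2 are known to set the level of many of these genes in liver.

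Gene expression had been measured by stranded RNA sequencing of dissected liver, with 44 libraries in 9 groups that crossed 3 genotypes with 3 diets. Genotypes were wild type (WT), Ripk3-/- (Ripk3KO) and Mlkl-/- (MlklKO), both knockouts of genes of necroptosis, a lytic form of cell death. Feeding began at 2 months of age and lasted 6 months, on 1 of 3 diets: normal chow, called control, or food deficient in choline with little fat (CD-LFD) or with much fat (CD-HFD). WT groups held 6 libraries on each diet, Ripk3KO groups 6, 3 and 4, and MlklKO groups 6, 4 and 3, in the order control, CD-LFD and CD-HFD. The labels name no strain, sex, litter or batch, nor whether the knockouts were compared with littermates, and p-values measure the spread between these libraries. Levels are given as CPM, counts relative to library size after TMM scaling. Differences are log2 values with a standard error (SE), taken as the absolute difference divided by the square root of the test's F statistic. This SE is unreliable where the difference or the counts are near 0. A gene is said to have changed where edgeR's quasi-likelihood test gave a Benjamini-Hochberg adjusted p under 0.05 over the 14862 genes tested.

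Total counts per library ran from 2476268 to 12471844, apart from WT CD-LFD replicate 3 with 88204703. Ripk3 had 0 to 2 counts in all Ripk3KO libraries but control replicate 5, which had 9, and was lower than in WT by log2 differences of -2.30, -5.36 and -5.53 on control, CD-LFD and CD-HFD. Mlkl kept 9 to 72 counts in every MlklKO library and was lower than in WT by -1.15 (SE 0.28, adjusted p 0.00225) on control and -1.71 (SE 0.28, adjusted p 0.000160) on CD-LFD. On CD-HFD the Mlkl difference was -1.29 (SE 0.29, adjusted p 0.294), and MlklKO CD-HFD replicate 1 held the 72 counts. In WT livers on CD-HFD all 10 tested macrophage markers rose, with a summed level of 1075 to 2687 CPM (median 1400.5) against 175 to 215 CPM (median 188) on control. All 8 cholangiocyte markers rose, to 719.5 to 1195 CPM (median 922) against 62.1 to 118 CPM (median 78.5). Of 11 hepatocyte markers 10 fell, with a summed level of 62269.6 to 99526 CPM (median 69766) against 97146 to 167208 CPM (median 138959). Of 10 stellate cell and fibroblast markers 8 rose, with a summed level of 855 to 1624 CPM (median 1140.3) against 242 to 305 CPM (median 261). All 9 markers of male liver fell, and of 5 tested female liver markers 3 rose and 1 fell, with a sum over all 8 of 30.2 to 104 CPM (median 54.5) against 1.02 to 18.3 CPM (median 3.31). On CD-LFD in WT 8 of 10 macrophage, 5 of 8 cholangiocyte and 8 of 10 stellate cell and fibroblast markers rose and 6 of 11 hepatocyte markers fell, with a macrophage sum of 289.8 to 519.6 CPM (median 419). In tissue of mixed cells, fewer cells of a type and less RNA per cell cannot be told apart, and the part of these shifts in the differences below was not tested. WT control replicates 5 and 6 stood apart from their group by the share of counts in predicted genes (0.557% and 0.757%, against 0.321% to 0.367%), as did WT CD-LFD replicates 5 and 6 (0.656% and 0.670%, against 0.382% to 0.495%). Results that rest on these 4 libraries are also given without them. They were chosen after the data, the genes described here included, had been seen. WT CD-HFD replicates 1 and 6, with 0.579% each, had larger shares than WT control replicate 5, so a second alternative left out the 6 libraries with the highest shares by rank alone. The Arntl to Dbp ratio, which follows the liver clock, was cut at its widest inner gap, between log2 values of -2.66 and -3.67. These values ran from -7.88 to 2.69, so the 2 phases divide a broad spread. The cut put 4 of 6 WT control, 6 of 6 WT CD-LFD, 1 of 6 WT CD-HFD and 0 knockout libraries in a second phase. Comparisons within the first phase therefore rest on 2 WT control libraries, replicates 2 and 4, and 5 WT CD-HFD libraries.

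Glutathione transferases were the most abundant members in WT liver on the control diet. Per kilobase of coding sequence, Gstp1 (pi class) stood at 4458 ± 1243 CPM (SD, n = 6), Gstm1 (mu class) at 2905 ± 722 and Gsta3 (alpha class) at 2388 ± 1181. The highest sulfotransferase was Sult2a8, known as a bile acid sulfotransferase, at 875 ± 157 CPM per kilobase, followed by the phenol sulfotransferase Sult1a1 at 257 ± 68.8 and the catecholamine sulfotransferase Sult1d1 at 109 ± 19.2. Among Ugt genes the order was Ugt2b5 (639.5 ± 179), Ugt2b36 (367 ± 47.8) and Ugt2b1 (305 ± 110.4), and the last pair differed by less than their spread. Summed over each family, the median total in WT liver was highest on control and lowest on CD-HFD. The Gst sum was 6503 to 9743 CPM (median 8578) on control, 5273 to 6857 CPM (median 5859) on CD-LFD and 3819.8 to 4714 CPM (median 4310.5) on CD-HFD. The Ugt sum was 1963 to 4172 CPM (median 3818), 1567 to 3232 CPM (median 2334) and 1087 to 1876 CPM (median 1607), and the Sult sum 801 to 1261 CPM (median 1194), 656 to 944 CPM (median 822) and 391 to 678 CPM (median 566), in the same order. After TMM scaling the CD-HFD sums of all 3 families lay below every control sum. As a percent of raw library counts only the Gst ranges stayed apart. The Ugt share was 0.192% in WT control replicate 6 and 0.240% in WT CD-HFD replicate 3. For Sult it was 0.0783% in WT control replicate 6 and 0.0814% in WT CD-HFD replicate 1. These sums are descriptions, in which the abundant genes weigh most.

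Sult1e1, the estrogen sulfotransferase, had the largest log2 diet differences of all members in WT and Ripk3KO livers. It is known to be scarce in healthy mouse liver and to be induced in diabetic mice. It lies on chromosome 5 beside Sult1d1, Sult1b1 and the Ugt2 genes, all its 50-base stretches were unique among annotated transcripts, and its promoter is shown because none of its tested neighbours rose in WT liver (GRCm38.p6, RefSeq, the 250 bases before the start, with no match to any motif searched).
Sult1e1, chr5:87591612-87591861, minus strand: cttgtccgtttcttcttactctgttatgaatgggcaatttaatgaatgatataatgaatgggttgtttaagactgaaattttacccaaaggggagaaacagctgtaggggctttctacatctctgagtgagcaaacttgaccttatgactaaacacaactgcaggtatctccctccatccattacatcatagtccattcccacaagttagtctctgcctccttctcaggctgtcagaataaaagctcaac

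The 6 WT control libraries held 0 to 3 Sult1e1 counts each, or 0 to 0.733 CPM (median 0.297). On CD-LFD the 6 WT libraries read 68.8 to 248 CPM (median 117), and on CD-HFD 20.3 to 54.2 CPM (median 37.3). The 3 groups did not overlap, and the low-fat diet gave the higher level. The summed counts gave a ratio of CD-LFD to control of 366 (exact 95% interval 186 to 848) and of CD-HFD to control of 127 (exact 95% interval 64.5 to 295), intervals that cover counting error only. The fitted log2 differences from control were 8.83 (SE 0.72, adjusted p 2.09e-12) and 6.88 (SE 0.73, adjusted p 3.54e-10), whose size depends on the prior count because the control is near 0. CD-HFD was below CD-LFD by a log2 difference of -1.95 (SE 0.42, adjusted p 0.000524). With clock phase as a covariate that difference was -1.30 (adjusted p 0.335) and was no longer called.

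Ripk3KO livers showed the same order of diets. Sult1e1 read 0.209 to 1.26 CPM (median 0.454) on control, 258, 168 and 295 CPM on CD-LFD and 95.7, 55.6, 64.6 and 85.7 CPM on CD-HFD, and neither diet group overlapped with control. The count ratios were 439.6 (exact 95% interval 284 to 720.2) and 124 (exact 95% interval 80.4 to 204). On CD-HFD all 4 Ripk3KO values lay above every WT value, and the log2 difference from WT was 1.02 (SE 0.45, adjusted p 0.469), not called, and 1.02 (adjusted p 0.0409), called, with only the compared groups fitted. On CD-LFD the ranges overlapped and the difference was 0.75 (SE 0.48, adjusted p 0.591). The interactions of Ripk3KO with the diets, that is the knockout's diet difference minus that of WT, were -0.19 (SE 1.20, adjusted p 0.987) for CD-LFD and 0.08 (SE 2.30, adjusted p 0.997) for CD-HFD. Neither interaction was called. Both differences are near 0 and the control counts are few, so these SE values are unreliable. The lack of a call does not show that the responses were equal.

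MlklKO livers started from a higher level. Their 6 control libraries read 1.29, 1.74, 1.76, 2.48 and 2.48 CPM in replicates 1 to 5 and 29.5 CPM in replicate 6, all above every WT control library. The log2 difference from WT on control was 4.42 (SE 0.83, adjusted p 0.000123), and 2.68 (adjusted p 0.00126) without replicate 6. On CD-LFD the MlklKO values were 182, 95.2, 114 and 100.1 CPM and on CD-HFD 22.8, 21.7 and 16.8 CPM. Both ranges overlapped with WT on the same diet, where the log2 differences from WT were -0.22 (SE 0.45, adjusted p 0.879) and -0.86 (SE 0.53, adjusted p 0.620). The diet differences within MlklKO were 4.20 (SE 0.49, adjusted p 3.10e-08) for CD-LFD and 1.61 (SE 0.52, adjusted p 0.0113) for CD-HFD, and control replicate 6 lay above all 3 CD-HFD libraries. With only the compared groups fitted the CD-HFD difference was 1.61 (adjusted p 0.103) and was not called. The interactions with MlklKO were -4.64 (SE 0.99, adjusted p 0.00255) and -5.28 (SE 1.02, adjusted p 0.00238). Without replicate 6 they were -2.90 (adjusted p 0.00427) and -3.54 (adjusted p 0.00112), and the diet differences 5.94 (adjusted p 1.84e-15) and 3.35 (adjusted p 2.91e-09).

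**Figure D1:**
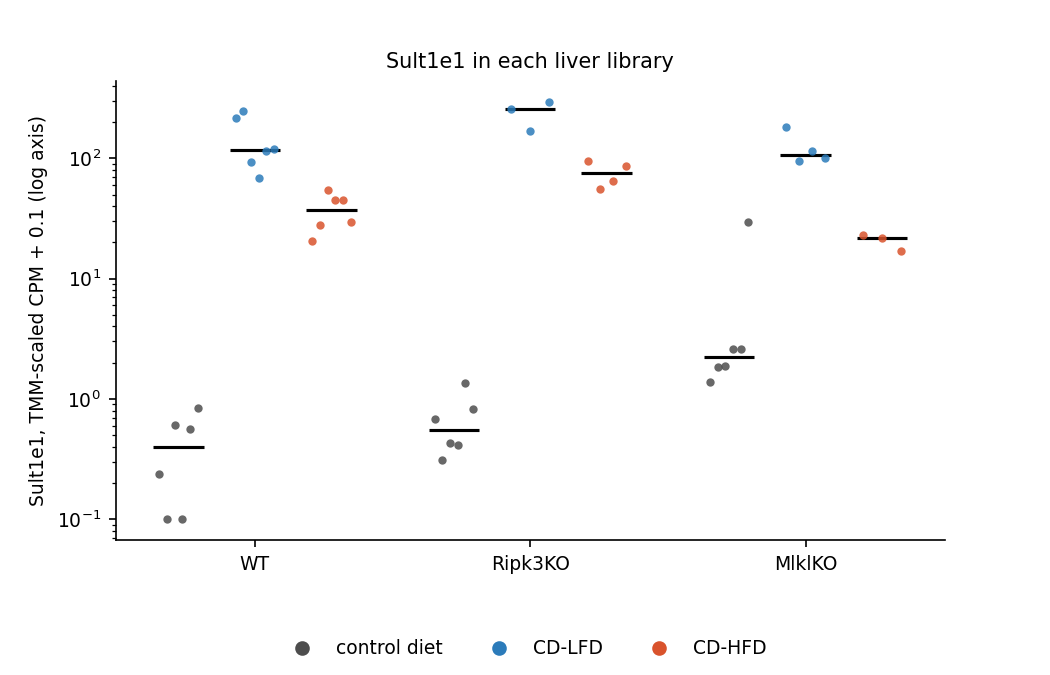
Sult1e1 level in each of the 44 libraries, by genotype (x axis) and diet (colour), as TMM-scaled CPM plus 0.1 on a log axis; each point is 1 library and each line a group median. Within each genotype both choline-deficient diets lie above control, apart from MlklKO control replicate 6 at 29.5 CPM, and CD-LFD lies above CD-HFD.

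The comparison of diets in WT livers asks how these genes differed between choline-deficient food, with little or much fat, and normal chow. The 9 groups held no choline-sufficient food of matched fat, so choline and other contents of the food cannot be told apart. On CD-HFD 32 of 45 tested members changed, 8 up and 24 down, against 47.7% of all genes tested (23.5% up, 24.1% down). As shares of the members these are 71.1%, 17.8% and 53.3%. No test compared these shares with the background, and the share that rose was near that of all genes. The median log2 difference was -0.67 over members and -0.07 over all genes. On CD-LFD 23 members changed, 7 up and 16 down, against 27.7% of all genes (13.7% up, 14.0% down), with medians of -0.21 and -0.03. By family, no Ugt gene rose on either diet, while 12 of 16 fell on CD-HFD and 8 on CD-LFD. Of 20 Gst genes, 5 rose and 10 fell on CD-HFD, and 5 rose and 7 fell on CD-LFD. Of 9 Sult genes, 3 rose and 2 fell on CD-HFD, and 2 rose and 1 fell on CD-LFD. Differences between the families were not tested. The filter keeps a gene that is high in a single group, so these counts describe the tested members and not all 60. Without the 4 libraries that stood apart the counts were 32 (6 up, 26 down, 55.6% of all genes) and 23 (7 up, 16 down, 28.2%). Without the 6 chosen by rank they were 32 (6 up, 26 down, 48.4%) and 23 (7 up, 16 down, 28.4%). With only the compared groups fitted they were 29 (37.9%) and 14 (6 up, 8 down, 15.3%).

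**Figure D2:**
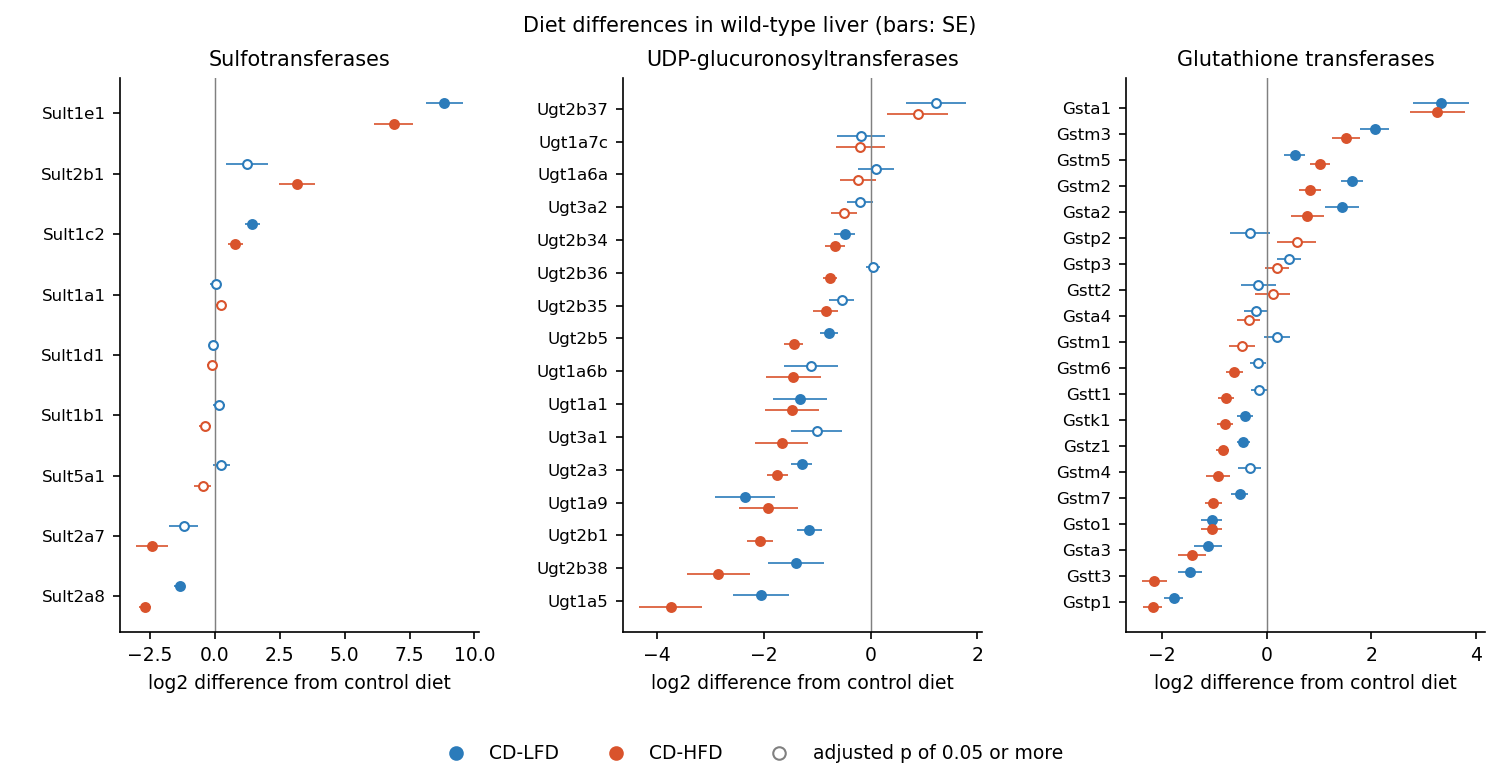
Log2 difference from the control diet in WT liver (x axis) for the 45 tested members by family, with CD-LFD in blue and CD-HFD in orange; bars are 1 SE and open points have an adjusted p of 0.05 or more. All filled Ugt points lie left of 0, and Sult1e1 at 6.88 and 8.83 lies farthest right.

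Among the sulfotransferases the abundant Sult2a8 fell most. It read 517 to 869 CPM (median 770.0) on control, 184 to 452 CPM (median 267) on CD-LFD and 61.5 to 177 CPM (median 115) on CD-HFD in WT livers. The 3 groups did not overlap, and the log2 differences were -1.36 (SE 0.20, adjusted p 3.23e-06) and -2.69 (SE 0.21, adjusted p 2.06e-13). Its neighbour Sult2a7 was low, with 0 to 3.07 CPM (median 1.21) on control and 0 to 0.483 CPM (median 0.338) on CD-HFD, ranges that overlapped at 0. The log2 difference for Sult2a7 was -2.41 (SE 0.61, adjusted p 0.00111) on CD-HFD and -1.20 (SE 0.55, adjusted p 0.0960) on CD-LFD. Sult1c2, another cytosolic sulfotransferase, read 0.456 to 4.89 CPM (median 2.47) on control, 5.59 to 8.37 CPM (median 7.54) on CD-LFD and 2.57 to 5.47 CPM (median 5.01) on CD-HFD. Its CD-LFD values lay above every control value, with a log2 difference of 1.45 (SE 0.29, adjusted p 0.000192). The CD-HFD difference of 0.78 (SE 0.29, adjusted p 0.0236) was 0.41 (adjusted p 0.193) without the 4 libraries and -0.06 (adjusted p 0.897) within 1 clock phase, where it was not called. Sult2b1, the cholesterol sulfotransferase, was scarce, with 0 to 0.733 CPM (median 0) on control, 0.140 to 0.799 CPM (median 0.325) on CD-LFD and 0.609 to 2.48 CPM (median 1.35) on CD-HFD, ranges that overlapped. Its log2 difference of 3.16 (SE 0.69, adjusted p 0.000208) on CD-HFD was the second largest of the sulfotransferases after Sult1e1, and on CD-LFD it was 1.24 (SE 0.80, adjusted p 0.257). There were 4 Sult2b1 counts over the WT control group and 83 over CD-HFD, a count ratio of 9.89 (exact 95% interval 3.72 to 37.2), so the fitted size depends on the prior count. Of those 4 counts 3 lay in WT control replicate 6. Without WT control replicates 5 and 6 the differences were 4.56 (adjusted p 4.99e-05) on CD-HFD and 2.63 (adjusted p 0.0437), called, on CD-LFD, and without the 4 libraries 4.57 (adjusted p 3.73e-05) and 2.10 (adjusted p 0.159). Sult1a1, Sult1b1 and Sult1d1, which act on phenols and amines, and Sult5a1 passed no threshold in either WT comparison. Without the 4 libraries Sult1b1 was -0.70 (adjusted p 0.00225) on CD-HFD and Sult5a1 1.19 (adjusted p 0.00368) on CD-LFD, both called.

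The Ugt2 enzymes of chromosome 5 glucuronidate steroids, bile acids and phenols. Ugt2b1 read 236 to 682 CPM (median 554) on control, 107 to 414 CPM (median 210.3) on CD-LFD and 74.3 to 155 CPM (median 116) on CD-HFD. The CD-HFD range lay below control, and the CD-LFD range overlapped with it. Its log2 differences were -2.07 (SE 0.24, adjusted p 3.35e-09) on CD-HFD and -1.15 (SE 0.24, adjusted p 0.000330) on CD-LFD. Ugt2b38 fell from 7.15 to 23.3 CPM (median 12.1) to 0.542 to 3.16 CPM (median 1.35) on CD-HFD, a log2 difference of -2.85 (SE 0.59, adjusted p 9.72e-05). On CD-LFD it read 0.866 to 11.2 CPM (median 2.96), and its difference of -1.40 (SE 0.53, adjusted p 0.0446) was -0.66 (adjusted p 0.430) without the 4 libraries. Ugt2b5, the most abundant Ugt gene, read 619 to 1468 CPM (median 1007) on control and 291 to 424 CPM (median 385) on CD-HFD, with no overlap, a log2 difference of -1.44 (SE 0.17, adjusted p 4.41e-09). Ugt2b36 was lower on CD-HFD than on CD-LFD, at -0.80 (SE 0.13, adjusted p 1.34e-05). It read 472 to 674 CPM (median 572) on control, 496 to 695 CPM (median 610.0) on CD-LFD and 258 to 391 CPM (median 353) on CD-HFD. The CD-LFD difference was 0.04 (SE 0.13, adjusted p 0.850) and the CD-HFD difference -0.76 (SE 0.13, adjusted p 6.34e-06). Ugt2a3, Ugt2b34 and Ugt2b35 fell on CD-HFD by log2 differences of -1.75, -0.67 and -0.84. Ugt2b37 was the only Ugt2 gene of 8 tested that did not pass on CD-HFD, at 0.88 (SE 0.57, adjusted p 0.209).

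The Ugt1a genes of chromosome 1 share their last exons and differ in the first, so reads from the shared part cannot be assigned to 1 gene. The share of 50-base stretches unique to the gene was 41.8% for Ugt1a1, 38.0% for Ugt1a9, 36.0% for Ugt1a5, 21.4% for Ugt1a6b and 2.26% for Ugt1a6a. Ugt1a1, the bilirubin-conjugating enzyme, read 70.5, 88.0, 94.2 and 79.9 CPM in WT control replicates 1 to 4 and 4.11 and 4.89 CPM in replicates 5 and 6. In WT CD-LFD it read 22.0, 18.3, 56.8 and 29.4 CPM in replicates 1 to 4 and 5.56 and 2.40 CPM in replicates 5 and 6. These 4 were the lowest values of Ugt1a1 in the series, in libraries chosen with such values in view, while WT CD-HFD replicates 1 and 6, with similar predicted-gene shares, read 17.7 and 7.53 CPM. Ugt1a9, which conjugates phenols, split likewise in WT control, with 12.5 to 17.3 CPM in replicates 1 to 4 and 0.456 and 0.244 CPM in replicates 5 and 6. Ugt3a1, a gene of another chromosome whose enzyme transfers N-acetylglucosamine, read 38.7 to 54.0 CPM against 4.11 and 3.67 CPM in the same libraries. What sets these libraries apart was not tested.

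With all libraries, Ugt1a5 fell by a log2 difference of -3.75 (SE 0.59, adjusted p 1.28e-06) on CD-HFD and -2.05 (SE 0.52, adjusted p 0.00281) on CD-LFD. It read 0.733 to 54.0 CPM (median 27.4) on control, 1.33 to 13.7 CPM (median 4.07) on CD-LFD and 0.619 to 3.90 CPM (median 1.54) on CD-HFD, with overlap through control replicates 5 and 6. Ugt1a9 fell by -1.92 (SE 0.55, adjusted p 0.00409) on CD-HFD and -2.36 (SE 0.56, adjusted p 0.00151) on CD-LFD. Ugt1a1 gave -1.48 (SE 0.51, adjusted p 0.0154) and -1.33 (SE 0.51, adjusted p 0.0449), and leaving out single libraries put the CD-LFD adjusted p between 0.00495 and 0.113. With only the compared groups fitted, Ugt1a5 on CD-LFD was -2.07 (adjusted p 0.0664) and Ugt1a1 -1.33 (adjusted p 0.227), both without a call. In the fit of all groups without the 4 libraries, all 3 genes were called on both diets. These libraries were chosen with Ugt1a values in view, so leaving them out narrows the spread of these genes by choice. Calls in that fit are a description and no added support. Ugt1a5 was then -4.28 (adjusted p 1.48e-10) on CD-HFD and -2.14 (adjusted p 0.000297) on CD-LFD. Ugt1a9 was -2.43 (adjusted p 2.42e-05) and -2.48 (adjusted p 0.000419), and Ugt1a1 -2.01 (adjusted p 5.30e-06) and -1.36 (adjusted p 0.00653). Ugt1a6b and Ugt3a1 had no CD-LFD call with all libraries (-1.11, adjusted p 0.0924, and -1.01, adjusted p 0.111). Without the 4 libraries they were -1.20 (adjusted p 0.0230) and -1.04 (adjusted p 0.0491), with the same limit. Ugt1a6a, of which almost no stretch is unique, did not pass the test on either diet.

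**Figure D3:**
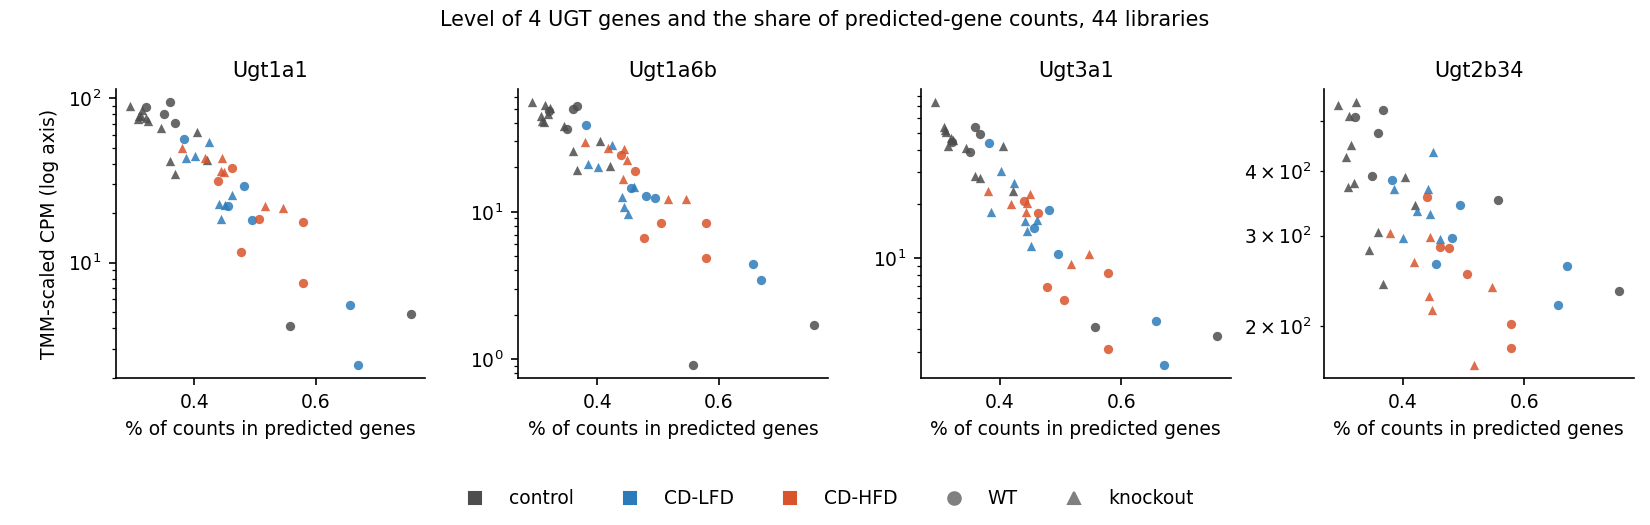
Level of Ugt1a1, Ugt1a6b, Ugt3a1 and Ugt2b34 (y axis, TMM-scaled CPM, log axis) against the percent of counts in predicted genes (x axis); each point is 1 of 44 libraries, coloured by diet, with circles for WT and triangles for knockouts. WT control and WT CD-LFD replicates 5 and 6, with 0.557% to 0.757%, hold the lowest Ugt1a1 values, between 2.40 and 5.56 CPM, and the 2 CD-HFD libraries with 0.579% do not.

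Among the glutathione transferases, Gstp1 lost most in absolute level. It is the pi-class enzyme that is abundant in male mouse liver. It read 1656 to 3909.9 CPM (median 2729) on control, 598 to 1068 CPM (median 854) on CD-LFD and 477 to 721 CPM (median 659) on CD-HFD. Both diet ranges lay below control, with log2 differences of -1.77 (SE 0.18, adjusted p 8.81e-10) and -2.18 (SE 0.18, adjusted p 7.51e-13). Only 37.7% of its 50-base stretches are unique, the rest being shared mainly with Gstp2, which read 14.7 to 37.5 CPM (median 18.2) on control and did not pass on either diet. The theta-class gene Gstt3 fell from 27.6 to 71.0 CPM (median 39.7) to 12.5 to 23.4 CPM (median 15.1) on CD-LFD and 7.12 to 13.1 CPM (median 9.74) on CD-HFD. These ranges did not overlap with control either, and the log2 differences were -1.47 (SE 0.23, adjusted p 5.94e-06) and -2.15 (SE 0.24, adjusted p 6.59e-10). Gsta3, an alpha-class enzyme that detoxifies aflatoxin, read 441 to 2344 CPM (median 1876) on control, with WT control replicates 5 and 6 lowest at 778 and 441 CPM. Its log2 difference was -1.43 (SE 0.27, adjusted p 2.55e-05) on CD-HFD and -1.12 (SE 0.27, adjusted p 0.00159) on CD-LFD. Other classes fell as well on CD-HFD, namely Gstk1 of the kappa class (-0.80), Gsto1 of the omega class (-1.05) and Gstz1, which acts in tyrosine breakdown (-0.84). So did Gstt1 (-0.78) and the mu-class genes Gstm4, Gstm6 and Gstm7 (-0.94, -0.62 and -1.02). Gsta4, which conjugates the lipid peroxidation product 4-hydroxynonenal, did not pass, at -0.34 (SE 0.22, adjusted p 0.197).

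Against these falls, Gsta1, Gsta2, Gstm2, Gstm3 and Gstm5 rose on both diets in WT liver with all libraries, of which Gsta2 on CD-HFD and Gstm5 on CD-LFD were not called without the 4 libraries. Gsta1, an alpha-class enzyme known as inducible by antioxidants, read 1.79 to 7.82 CPM (median 2.58) on control, 14.0 to 54.1 CPM (median 32.5) on CD-LFD and 21.0 to 50.4 CPM (median 29.4) on CD-HFD. Neither diet range overlapped with control, and the log2 differences were 3.33 (SE 0.53, adjusted p 8.57e-06) and 3.27 (SE 0.53, adjusted p 2.30e-06). Only 10.3% of its 50-base stretches are unique, and the gene sharing most is the predicted Gm3776. Its neighbour Gsta2, with 35.8% unique, rose by 1.45 (SE 0.32, adjusted p 0.000789) and 0.78 (SE 0.32, adjusted p 0.0416), and on CD-HFD was 0.80 (adjusted p 0.0670) without the 4 libraries. Gstm3 read 63.5 to 97.5 CPM (median 82.3) on control, 273 to 423 CPM (median 342) on CD-LFD and 148 to 443 CPM (median 202) on CD-HFD, again without overlap. Its log2 differences were 2.06 (SE 0.28, adjusted p 4.12e-07) and 1.52 (SE 0.27, adjusted p 1.38e-05). Gstm2 read 51.1 to 81.8 CPM (median 63.4), 157 to 229 CPM (median 214) and 80.2 to 188 CPM (median 105), with CD-HFD between control and CD-LFD. Its log2 differences were 1.63 (SE 0.21, adjusted p 2.25e-07) and 0.83 (SE 0.21, adjusted p 0.00105). For Gstm5 the CD-HFD difference was 1.02 (SE 0.20, adjusted p 3.30e-05). The CD-LFD one was 0.53 (SE 0.20, adjusted p 0.0388) with all libraries and 0.44 (adjusted p 0.174) without the 4. The most abundant mu-class gene, Gstm1, gave 0.19 (SE 0.25, adjusted p 0.606) and -0.47 (SE 0.25, adjusted p 0.119), so that genes of 1 cluster on chromosome 3 rose (Gstm2 and Gstm3, and Gstm5 with the limit given on CD-LFD), fell (Gstm4, Gstm6, Gstm7 on CD-HFD) or did not pass (Gstm1).

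**Figure D4:**
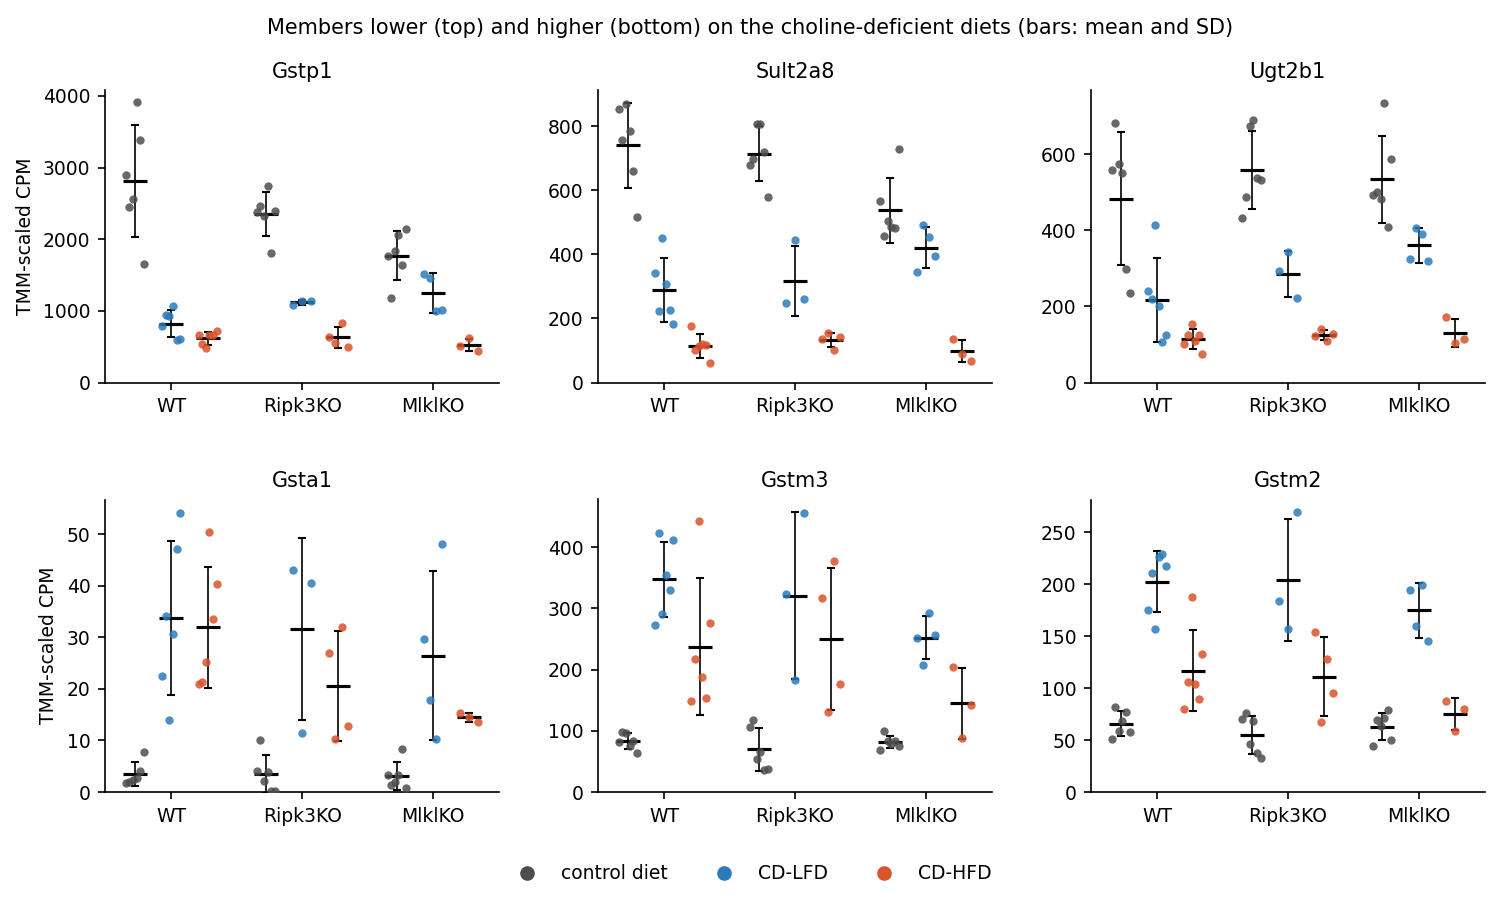
Level (y axis, TMM-scaled CPM) of 3 members that fell and 3 that rose in WT livers on the choline-deficient diets, by genotype (x axis) and diet (colour); points are libraries and bars the group mean and SD. The group means of Gstp1, Sult2a8 and Ugt2b1 are highest on control in each genotype and those of Gsta1, Gstm3 and Gstm2 lowest there, though in MlklKO Sult2a8 did not pass the test on CD-LFD and the Gstp1 ranges on control and CD-LFD overlap.

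The promoters of the 5 glutathione transferase genes that rose on both diets are shown with that of Gsta3, which fell and holds a motif (GRCm38.p6, RefSeq, the 250 bases before the start). Capitals mark the core of the antioxidant response element, TGACNNNGC, to which NRF2 binds, on either strand.
Gsta1, chr9:78230419-78230668, plus strand: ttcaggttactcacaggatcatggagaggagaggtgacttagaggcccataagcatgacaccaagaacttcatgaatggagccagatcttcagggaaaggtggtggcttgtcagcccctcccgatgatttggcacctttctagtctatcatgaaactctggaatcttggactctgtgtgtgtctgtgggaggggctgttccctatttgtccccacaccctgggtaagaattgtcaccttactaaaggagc
Gsta2, chr9:78347146-78347395, minus strand: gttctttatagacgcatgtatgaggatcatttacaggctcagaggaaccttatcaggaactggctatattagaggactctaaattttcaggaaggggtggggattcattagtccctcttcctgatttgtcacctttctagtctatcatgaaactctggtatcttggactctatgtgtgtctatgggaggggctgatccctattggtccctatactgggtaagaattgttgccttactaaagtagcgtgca
Gstm2, chr3:107986421-107986670, minus strand: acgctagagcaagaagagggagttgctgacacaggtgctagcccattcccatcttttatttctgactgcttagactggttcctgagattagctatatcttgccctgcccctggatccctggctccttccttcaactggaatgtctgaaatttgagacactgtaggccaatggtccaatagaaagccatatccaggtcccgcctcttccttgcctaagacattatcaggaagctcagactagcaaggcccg
Gstm3, chr3:107969175-107969424, minus strand: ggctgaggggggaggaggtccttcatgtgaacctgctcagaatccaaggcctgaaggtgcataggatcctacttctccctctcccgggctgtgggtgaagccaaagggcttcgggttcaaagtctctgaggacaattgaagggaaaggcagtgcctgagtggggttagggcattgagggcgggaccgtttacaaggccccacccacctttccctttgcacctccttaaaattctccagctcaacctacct
Gstm5, chr3:107895604-107895853, plus strand: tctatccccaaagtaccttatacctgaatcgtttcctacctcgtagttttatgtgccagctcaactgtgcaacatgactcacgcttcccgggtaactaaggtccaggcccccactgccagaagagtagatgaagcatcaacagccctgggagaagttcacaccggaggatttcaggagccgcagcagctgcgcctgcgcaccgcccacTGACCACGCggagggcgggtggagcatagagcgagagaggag
Gsta3, chr1:21240335-21240584, plus strand: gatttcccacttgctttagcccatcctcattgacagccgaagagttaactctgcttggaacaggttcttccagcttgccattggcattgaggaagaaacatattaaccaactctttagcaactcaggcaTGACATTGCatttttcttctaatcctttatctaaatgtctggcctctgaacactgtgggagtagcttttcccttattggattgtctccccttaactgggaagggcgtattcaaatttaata
The 250 bases of Gsta1 and Gsta2 were 71.4% identical in a global alignment. Within the 250 bases, the only ones searched, neither these genes nor Gstm2 and Gstm3 hold that core. It was found 42 bases before the start in Gstm5, which rose, and 121 bases before the start in Gsta3, which fell, and also 129 bases before the start in Gstm7, which fell. These were the 3 matches among 63 promoters of members (4.76%), against 10.2% of all 32851 promoters of the table. The xenobiotic response element core GCGTG was found in 17.5% of member promoters and 28.2% of all. The DR1 and DR4 direct repeats of AGGTCA, to which nuclear receptors bind, were found in 0 member promoters and in 0.0335% and 0.0152% of all. Both strands were searched, each motif was counted on its own, and the 2 cores can overlap, as within the marked match in Gstm5. Of the members, 52 of 60 had a promoter in the table.

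The 2 choline-deficient diets were then compared with each other in WT liver. On CD-HFD 15 members differed from CD-LFD, 2 higher and 13 lower, against 21.1% of all genes (13.7% higher, 7.40% lower). The higher ones were Sult2b1 (1.92) and Gstm5 (0.49). Sult1e1, Sult2a8 (-1.33, SE 0.20, adjusted p 5.10e-06), Ugt1a5 (-1.69, SE 0.58, adjusted p 0.0318) and Ugt2b1 (-0.92, SE 0.24, adjusted p 0.00333) were among the lower ones. Gstm2 was lower as well, at -0.79 (SE 0.21, adjusted p 0.00374), although above control on both diets. Without the 4 libraries 25 members differed (2 higher, 23 lower), against 28% of all genes, and without the 6 chosen by rank 18 (2 higher, 16 lower), against 21.7%. Without the 6, Gstm2 was -0.67 (adjusted p 0.0507). Leaving out single libraries gave 8 (without WT CD-LFD replicate 4, 18.1% of all genes) to 20 (without replicate 6, 21.2%). With clock phase as a covariate 10 differed (15.1% of all genes), all lower.

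In Ripk3KO livers CD-HFD changed 31 members, 8 up and 23 down, against 46.3% of all genes (24.6% up, 21.7% down). CD-LFD changed 18, 8 up and 10 down, against 24.1% (14.0% up, 10.1% down). Without Ripk3KO CD-LFD replicate 3, which holds 144 counts of Xist, an RNA of female cells, against 0 to 17 elsewhere, CD-LFD changed 10, against 9.15% of all genes. That library also holds 614 counts of the male marker Ddx3y in a total of 12266692. Replicates 1 and 2 of its group hold 182 in 4676294 and 176 in 5214854. On CD-HFD 10 of 10 macrophage and 8 of 8 cholangiocyte markers rose and 9 of 11 hepatocyte markers fell in Ripk3KO, with macrophage sums of 67.9 to 429 CPM (median 178) on control, 322 to 616 CPM (median 453) on CD-LFD and 1499 to 2018 CPM (median 1748) on CD-HFD. Their part in the members' differences was not tested. Gstp1 in Ripk3KO read 1802 to 2748 CPM (median 2384) on control, 1075, 1141 and 1138 CPM on CD-LFD and 632, 555, 837 and 495 CPM on CD-HFD. Its log2 differences were -1.07 (SE 0.23, adjusted p 0.000543) and -1.90 (SE 0.21, adjusted p 9.53e-10). Sult2a8 fell by -1.17 (SE 0.26, adjusted p 0.000961) and -2.42 (SE 0.25, adjusted p 1.33e-10), and Ugt2b1 by -0.97 (SE 0.30, adjusted p 0.0161) and -2.17 (SE 0.28, adjusted p 4.47e-08). Gsta1 rose by 3.24 (SE 0.57, adjusted p 4.94e-05) and 2.60 (SE 0.54, adjusted p 0.000121), and Gstm3 by 2.20 (SE 0.31, adjusted p 1.81e-06) and 1.84 (SE 0.30, adjusted p 2.16e-06). No member had a called interaction of Ripk3KO with either diet by edgeR, against 0.478% of all genes for CD-HFD and 0.0269% for CD-LFD (0.00673% positive, 0.0202% negative). At an unadjusted p under 0.05 there were 3 and 3 members, and DESeq2 called 1 and 0.

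In MlklKO livers CD-HFD changed 28 members, 8 up and 20 down, against 45.2% of all genes (24.9% up, 20.3% down). CD-LFD changed 21, against 37.9%, with 14 up and 7 down (19.7% of all genes up, 18.3% down), where WT had 7 up and 16 down. On CD-HFD 10 of 10 macrophage and 8 of 8 cholangiocyte markers rose and 6 of 11 hepatocyte markers fell in MlklKO, with macrophage sums of 147 to 281 CPM (median 189) on control, 294 to 559.7 CPM (median 459) on CD-LFD and 1540.0 to 2357 CPM (median 1913) on CD-HFD. Their part in the members' differences was not tested. Gstp1 in MlklKO read 1181 to 2139 CPM (median 1800.0) on control, 1518, 1453, 997 and 1019 CPM on CD-LFD and 511, 620.3 and 446 CPM on CD-HFD. The control and CD-LFD ranges overlapped, with a log2 difference of -0.51 (SE 0.20, adjusted p 0.0411), and the CD-HFD difference was -1.75 (SE 0.23, adjusted p 6.56e-08). Ugt2b36, which did not pass in WT on CD-LFD, rose by 0.62 (SE 0.14, adjusted p 0.000934) in MlklKO. Sult5a1 read 5.82 to 19.1 CPM (median 11.3) on control and 54.3, 46.9, 39.9 and 47.4 CPM on CD-LFD, with no overlap, a log2 difference of 1.99 (SE 0.34, adjusted p 2.38e-05). Gstt2, a theta-class gene, rose from 33.6 to 58.4 CPM (median 38.7) to 147, 115, 145 and 187 CPM on CD-LFD, by 1.85 (SE 0.37, adjusted p 0.000162), again without overlap.

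On the control diet 12 members differed between MlklKO and WT, 5 higher and 7 lower, against 27.1% of all genes (13.0% higher, 14.1% lower), and at 26.7% the members' share was near that background. Ugt2b37 had the largest difference. It read 0.615 to 2.74 CPM (median 1.30) in WT, 0.194 to 9.63 CPM (median 4.24) in Ripk3KO and 12.7 to 57.2 CPM (median 42.4) in MlklKO. The lowest MlklKO control value was above every value of the gene in the other 8 groups. The log2 difference of MlklKO from WT was 4.90 (SE 0.52, adjusted p 1.94e-08), and 5.11 (adjusted p 1.77e-06) without the 4 libraries. Ugt2b38, in the same cluster with Ugt2a3 between them, read 7.15 to 23.3 CPM (median 12.1) in WT and 19.6 to 54.6 CPM (median 45.3) in MlklKO, ranges that overlapped. Its log2 difference was 1.66 (SE 0.50, adjusted p 0.0124). Within 1 clock phase it was 2.17 (adjusted p 0.0542), without a call. Most of its 50-base stretches not unique to it (62.6% are unique, and 81.7% for Ugt2b37) are shared with Ugt2b5, which went the other way at -0.76 (SE 0.17, adjusted p 0.000918). The promoters of this pair are shown because both levels were high in the same group.
Ugt2b37, chr5:87254789-87255038, minus strand: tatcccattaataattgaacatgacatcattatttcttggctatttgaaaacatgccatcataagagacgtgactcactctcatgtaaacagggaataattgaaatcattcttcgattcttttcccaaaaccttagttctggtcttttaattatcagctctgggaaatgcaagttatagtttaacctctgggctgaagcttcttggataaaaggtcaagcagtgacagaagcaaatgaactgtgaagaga
Ugt2b38, chr5:87424204-87424453, minus strand: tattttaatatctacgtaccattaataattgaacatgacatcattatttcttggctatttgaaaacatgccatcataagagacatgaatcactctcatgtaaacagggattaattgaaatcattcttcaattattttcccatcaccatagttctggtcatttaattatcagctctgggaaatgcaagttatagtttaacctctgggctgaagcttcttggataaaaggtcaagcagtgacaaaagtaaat
Their 250 bases were 85.2% identical. Ugt2b5, which went the other way, was 81.5% identical to Ugt2b38 and 73.0% to Ugt2b37. Ugt2b37 and Ugt2b1 were 52.8% identical, and neither promoter shown holds a match to the motifs searched.

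Among the other differences of MlklKO from WT on the control diet, the abundant Gstp1 was lower, at -0.67 (SE 0.18, adjusted p 0.00442), as were Gsta2 (-1.05, SE 0.33, adjusted p 0.0155) and Gstt2 (-1.06, SE 0.34, adjusted p 0.0176). Sult1a1 was higher at 0.61 (SE 0.20, adjusted p 0.0203) and Sult1d1 at 0.54 (SE 0.16, adjusted p 0.0117), with ranges that overlapped for both genes. Several of these calls changed without the libraries that stood apart. Without the 4 libraries Sult1a1 was 0.45 (adjusted p 0.152), Sult1d1 0.43 (adjusted p 0.0934), Gstt2 -0.78 (adjusted p 0.138) and Sult5a1 -0.05 (adjusted p 0.937), all without a call. Gsta2 was -1.03 (adjusted p 0.0489), and -1.02 (adjusted p 0.0551) without the 6 chosen by rank. Without the 4, Gsta3 was -0.87 (adjusted p 0.00124) and Sult2a8 -0.60 (adjusted p 0.0328), both called, and 13 members differed in all, against 19.7% of all genes. With only the compared groups fitted 6 did (11.7% of all genes), and within 1 clock phase 9 (12.8%). The male liver sum was 6883 to 13581 CPM (median 10129) in WT control and 4896 to 9655 CPM (median 5652) in MlklKO control. Cholangiocyte sums were 62.1 to 118 CPM (median 78.5) and 95.6 to 162 CPM (median 110). Hepatocyte medians were 138959 and 135942 CPM and macrophage medians 188 and 189 CPM. Their part in the members' differences was not tested.

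Between Ripk3KO and WT on the control diet 4 members differed, against 4.47% of all genes (2.25% higher, 2.23% lower). They were Ugt2b37 (1.86, SE 0.56, adjusted p 0.0441), Sult1a1 (0.67, SE 0.20, adjusted p 0.0452) and Sult1d1 (0.66, SE 0.16, adjusted p 0.0134), which were higher, and the pi-class gene Gstp3 (-0.86, SE 0.24, adjusted p 0.0265), which was lower. Sult1d1 read 77.2 to 117 CPM (median 95.7) in WT and 132 to 174 CPM (median 151) in Ripk3KO, without overlap, while the ranges of the other 3 overlapped. Without the 4 WT libraries 0 members differed, against 2.4% of all genes. There was 1 without WT control replicate 6 or Ripk3KO control replicate 3 or 5 (2.65% to 3.15% of all genes), and there were 2 without WT control replicate 1, 4 or 5 or Ripk3KO control replicate 4 or 6 (2.81% to 5.83%). Fitting the compared groups alone left 0 (0.417% of all genes). Within the Ripk3KO control group Gstt2 read 179, 175, 55.6, 58.3, 34.1 and 30.8 CPM in replicates 1 to 6, a spread wider than in the control groups of WT and MlklKO.

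On CD-LFD the members that differed between MlklKO and WT were Sult1d1 and Sult1a1, 2 of 45 and both higher, against 2.56% of all genes (1.64% higher, 0.929% lower). Sult1d1 read 146, 252, 185 and 155 CPM in MlklKO and 76.4 to 109 CPM (median 88.5) in WT, and Sult1a1 392, 437, 352 and 459 CPM and 203 to 258 CPM (median 235). Neither gene's ranges overlapped, and the log2 differences were 1.0 (SE 0.18, adjusted p 0.000583) and 0.81 (SE 0.22, adjusted p 0.0352). The Sult1a1 call was lost in 8 of 10 fits that left out a single library (adjusted p 0.0416 to 0.112), and its difference was 0.82 (adjusted p 0.0683) without the 4 libraries and 0.56 (adjusted p 0.0965) with scaling by library size only. All 6 WT CD-LFD libraries and none of the MlklKO libraries lay in the second clock phase, so phase and genotype cannot be told apart here. With phase as a covariate the differences were 0.87 (adjusted p 0.424) and 0.21 (adjusted p 0.999). On CD-HFD edgeR called no member between MlklKO and WT, against 0% of all genes, and DESeq2 called 0, with 7 members at an unadjusted p under 0.05. Between Ripk3KO and WT edgeR called none on CD-LFD (1.10% of all genes, 0.794% higher) or CD-HFD (0.377%). DESeq2 called 0 and 0, and 4 and 5 members had an unadjusted p under 0.05.

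**Figure D5:**
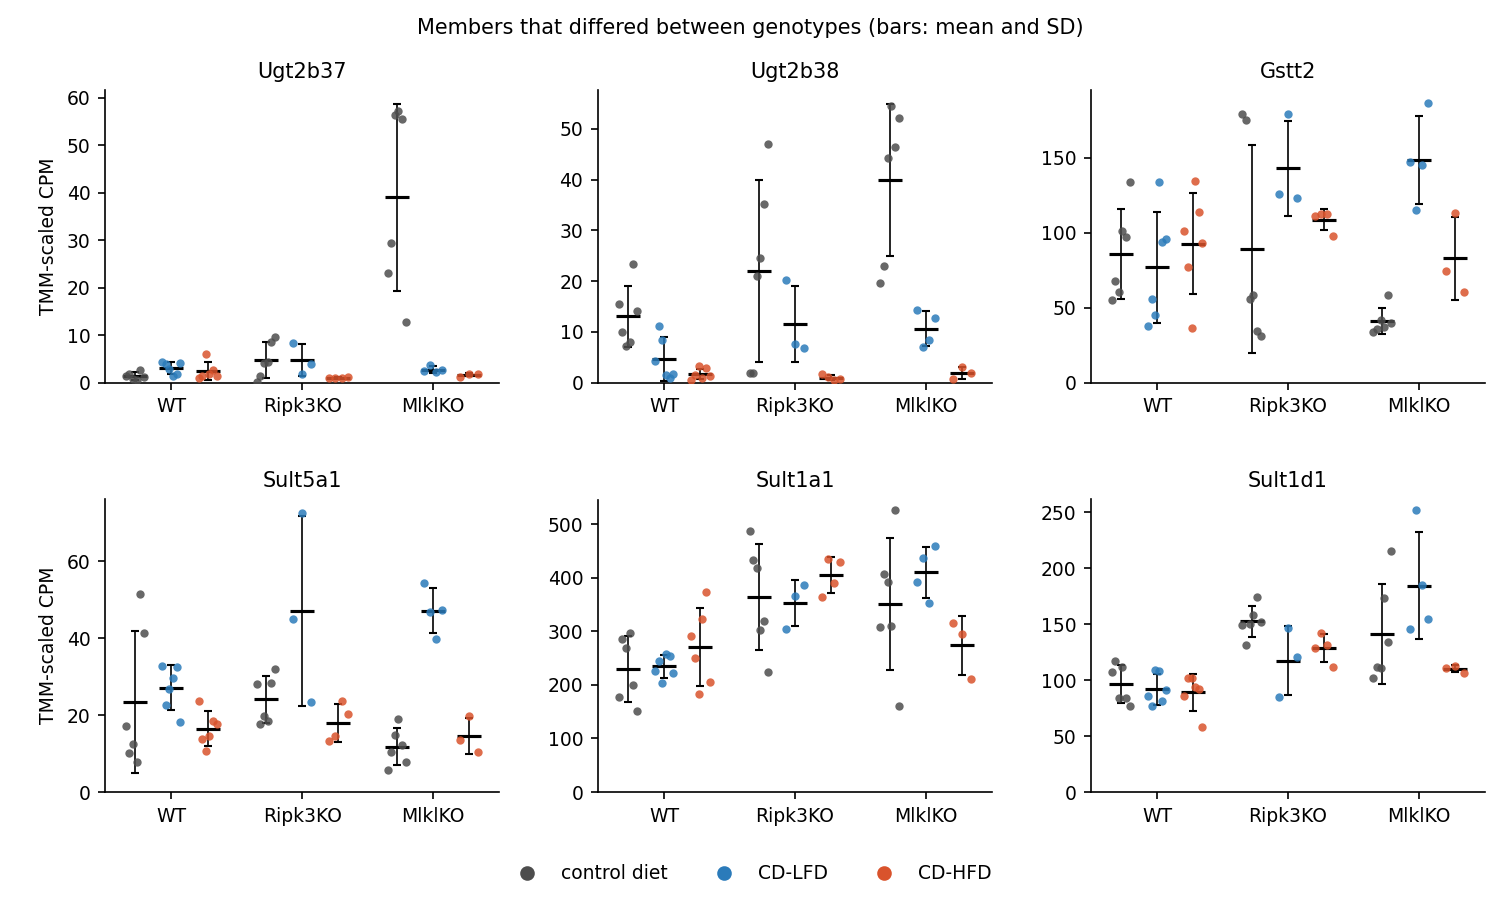
Level (y axis, TMM-scaled CPM) of 6 members that differed between genotypes or in their diet response, by genotype (x axis) and diet (colour); points are libraries and bars the group mean and SD. MlklKO control livers hold 12.7 to 57.2 CPM of Ugt2b37, above every other group, and the MlklKO control values of Gstt2 and Sult5a1 lie below those on CD-LFD.

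The interactions ask whether a diet difference depended on genotype. For MlklKO and CD-HFD 2 members were called, Sult1e1 and Ugt2b37, both negative, against 4.12% of all genes (2.54% negative). Ugt2b37 fell in MlklKO from 12.7 to 57.2 CPM (median 42.4) to 1.22, 1.83 and 1.73 CPM, while WT read 0.615 to 2.74 CPM (median 1.30) and 0.948 to 6.11 CPM (median 1.60), and the interaction was -5.47 (SE 0.83, adjusted p 0.000246). For MlklKO and CD-LFD 7 were called, 5 positive and 2 negative, against 8.45% of all genes (4.37% positive, 4.08% negative). The negative ones were again Sult1e1 and Ugt2b37 (-5.07, SE 0.74, adjusted p 5.09e-05). The positive ones were Gstt2 (2.01, SE 0.50, adjusted p 0.00896), Sult5a1 (1.74, SE 0.47, adjusted p 0.0153), Gstp1 (1.27, SE 0.26, adjusted p 0.00195), Ugt2b5 (1.13, SE 0.25, adjusted p 0.00369) and Sult2a8 (1.0, SE 0.30, adjusted p 0.0298). Gstp1, Ugt2b5 and Sult2a8 fell on CD-LFD in WT, while in MlklKO Ugt2b5 gave 0.35 (SE 0.19, adjusted p 0.133) and Sult2a8 -0.35 (SE 0.23, adjusted p 0.212). Markers moved with this contrast. The summed hepatocyte level was 97146 to 167208 CPM (median 138959) on control and 68491 to 116965 CPM (median 94546) on CD-LFD in WT, and 124432 to 142212 CPM (median 135942) and 133062 to 145715 CPM (median 142943) in MlklKO. Of 11 hepatocyte markers 2 had a positive and 1 a negative called interaction by edgeR, and 9 had an unadjusted p under 0.05 in either direction. The periportal hepatocyte sum was 5659 to 12287 CPM (median 10085) and 3449 to 7059.7 CPM (median 4983) in WT, and 7452 to 16038 CPM (median 12007) and 8466 to 12027 CPM (median 11451) in MlklKO, with 3 of 8 interactions called, all positive. The pericentral sum was 4311 to 11238 CPM (median 9185) and 6207 to 10639 CPM (median 8878) in WT, and 6879 to 9855 CPM (median 7456) and 11112 to 12832 CPM (median 12459.7) in MlklKO, without overlap in MlklKO, and 0 of 10 interactions were called by edgeR (2 at an unadjusted p under 0.05). The summed level of 9 male liver markers was 6883 to 13581 CPM (median 10129) and 6157 to 11035 CPM (median 7391) in WT, and 4896 to 9655 CPM (median 5652) and 8548 to 11876 CPM (median 10767) in MlklKO, and 1 had a called interaction. The part of these shifts in the members' interactions was not tested. The diet differences of WT and MlklKO and each interaction use the same control libraries. Without WT control replicates 5 and 6 the CD-LFD interaction was called for 12 members, 10 of them positive, against 10.6% of all genes, and Sult5a1 was 0.84 (adjusted p 0.159). Without WT control replicate 6 alone the interaction was called for 11, against 9.08% of all genes. Without the 4 libraries Sult2a8 was 0.95 (adjusted p 0.0511) and Sult5a1 0.80 (adjusted p 0.238), both without a call.

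The genes that feed, export or control these enzymes were counted in WT livers on CD-HFD from lists by function, beside the same background of 47.7% of all genes. For supply of the sulfate donor, 1 of 9 genes rose and 4 fell. Suox (sulfite oxidase, -1.56) and Papss2 (PAPS synthesis, -1.12) fell, and Slc35b3, a PAPS transporter, rose by 0.39. For supply of UDP-glucuronic acid, 2 of 7 genes rose and 4 fell. Ugdh, which makes the donor, fell (-0.54), as did Pgm1 (-1.09), and Gusb, which splits glucuronides, rose (0.49), as did Pgm2 (1.36). For glutathione synthesis and recycling, 6 of 16 genes rose and 7 fell. The falls included Cbs (-1.56) and Cth (-0.99), which make cysteine from homocysteine. Chac1, which degrades glutathione, rose from 1.58 ± 1.53 to 14.4 ± 13.0 CPM (SD, n = 6 each). The cystine transporter Slc7a11 had 0 counts in every WT control library and 3.94 ± 1.60 CPM on CD-HFD. Among other glutathione transferases and relatives, 4 of 9 genes rose and 1 fell. Alox5ap (3.91) and the prostaglandin D synthase Hpgds (3.84), both known from blood cells, rose as the macrophage markers did, and the abundant microsomal Mgst1 fell (-0.70).

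Among transporters of conjugates, 3 of 7 genes rose and 3 fell on CD-HFD in WT. Abcc1 (2.55) and Abcc5 (2.32) rose, and Abcc3 (-1.0) and Abcc6 (-1.02) fell. Among receptors and factors that regulate these families, 0 of 20 genes rose and 9 fell, with Ppara (-1.09) and Foxa3 (-0.96) lowest. The xenobiotic receptors Nr1i2 (PXR), Nr1i3 (CAR) and Ahr, and Nfe2l2 (NRF2), did not pass, at -0.37, -0.49, 0.10 and -0.18. Of 10 target genes of receptors and NRF2, 4 rose and 3 fell. The NRF2 targets Hmox1 (2.16, SE 0.28, adjusted p 3.50e-08), Nqo1 (1.68, SE 0.26, adjusted p 1.21e-06) and Srxn1 (1.59, SE 0.31, adjusted p 4.13e-05) rose with Cyp4a14 (1.87). The receptor targets Cyp2b10 and Cyp3a11 fell. Cyp2b10 went from 5.59 ± 5.01 to 0.0182 ± 0.0445 CPM, and Cyp3a11 fell by a log2 difference of -1.52 (SE 0.24, adjusted p 1.29e-06).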

How the data were processed

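Livers of mice in 9 groups of genotype and diet had been sequenced (44 libraries). The authors deposited raw, unnormalised counts of reads for each Ensembl gene in a single table. The submitters' processing notes name FastQC, STAR, HTSeq, edgeR, limma and the build GRCm39 (mm39), and versions are not given in the sources used here. Groups come from the sample labels. Of 35249 genes, 876 without a symbol held 0.0838% of counts and stayed in the table.

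All comparisons came from 1 fit over all 44 libraries with edgeR 4.0.16 in R 4.3.3, using TMM scaling (factors 0.799 to 1.34), filterByExpr with a minimum count of 10 (14862 genes, 99.8% of counts), the quasi-likelihood F test and Benjamini-Hochberg adjustment within each comparison at 0.05. The fit was also run on simulated data, whose outcome is not reported here and is not used as support. DESeq2 1.42.0 was an alternative, as were other scalings, filters, a replicate block, a clock-phase covariate, fits of the compared groups alone and leaving out each library. Precision follows depth, from 2476268 to 88204703 counts. Count-ratio intervals are exact at 95% and cover counting error only. Library pairs of 1 group differed by more than sampling noise (over 93 pairs, a chi-square of 6.95 to 116 per degree of freedom).

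The members and gene lists were chosen with earlier results of these data known. Full values were given for Sult1e1, for the 4 called members of each family with the largest diet differences in WT among those with a mean log2 CPM of at least 0 (which leaves out Sult2b1), for the 3 most abundant of each family in WT control, and for up to 3 called members of each genotype comparison and interaction. Other members were named after their values were seen. Leaving out WT control 5 and 6 with WT CD-LFD 5 and 6, leaving out the 6 libraries with the highest predicted-gene share, and comparisons within 1 clock phase were added after the data had been seen. Shared 50-base stretches and coding lengths come from GENCODE release M 21 (GRCm38) and promoters from RefSeq (GRCm38.p6), a build other than that of the counts, so these were matched by symbol.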

Additional observations from a re-analysis of the deposited data

Results flagged for a closer look

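In groups of 4 to 10 libraries, 7 of 161 sets of values had a lowest or highest library farther from the rest than Dixon's 95% limit, where chance gives about 1 in 20. Sult1e1 was 29.5 CPM in MlklKO control replicate 6, against 1.29 to 2.48 CPM in the other 5. Gstm1 was 1097 CPM in MlklKO control replicate 4, the lowest of its group, and Gstp3 was 10.8 CPM in MlklKO control replicate 1. Gstt2 was 98.0 CPM in Ripk3KO CD-HFD replicate 5, and Ugt1a5 was 2.50 CPM in Ripk3KO CD-HFD replicate 1. Sult1d1 was 58.3 CPM in WT CD-HFD replicate 6, and Ugt2b5 was highest at 906 CPM in MlklKO CD-LFD replicate 2.

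The diet difference of MlklKO differed from that of WT by the interaction test of edgeR (adjusted p under 0.05) for 7 members. On CD-HFD the interaction was -5.28 for Sult1e1 and -5.47 for Ugt2b37. On CD-LFD it was -4.64 for Sult1e1, -5.07 for Ugt2b37, 1.27 for Gstp1, 2.01 for Gstt2, 1.0 for Sult2a8, 1.74 for Sult5a1 and 1.13 for Ugt2b5.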

How the results depend on the processing

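Of 771 values refitted under alternatives other than leaving out 1 library, 694 kept direction and call (counts: within 1.5 times), and 7 changed direction. Called members between Ripk3KO and WT on control, 4 in the fit of all libraries, were 2 with library size only, 2 with the clock covariate, 1 within 1 clock phase, 0 with only the compared groups, 0 without WT control 5 and 6, 0 also without CD-LFD 5 and 6, and 0 without the 6 libraries of highest predicted-gene share. Those between MlklKO and WT on CD-LFD were 1 with library size only, 1 with no filter, 0 with the clock covariate, and 1 without the 4 or the 6 libraries. Between Ripk3KO and WT on CD-LFD there were 3 with no filter and 1 with 10 counts in 3 libraries. The Ripk3KO and CD-HFD interaction was called for 1 member with no filter, with the clock covariate and in DESeq2. The MlklKO and CD-LFD interaction had 12 without WT control 5 and 6, and the CD-HFD one 4 within 1 clock phase. WT CD-HFD against CD-LFD had 25 without the 4 libraries. With only the compared groups, WT CD-LFD against control had 14, MlklKO against WT on control 6 and Ripk3KO against WT on CD-HFD 1. The causes were not tested.

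For Sult1e1 the uncalled Ripk3KO and CD-HFD interaction changed sign, to -0.39 with the clock covariate, -0.51 without WT control 5 and 6, -0.51 without the 4 libraries, -0.74 without the 6 and -3.99 within 1 clock phase. Its uncalled difference between MlklKO and WT on CD-LFD was 0.59 with the clock covariate. Sult1c2 in WT on CD-HFD was -0.063 within 1 clock phase. Leaving out 1 library gave for Sult1e1 -0.34 to 0.57 (Ripk3KO and CD-HFD interaction), -0.62 to 0.29 (Ripk3KO and CD-LFD interaction) and -0.47 to 0.00670 (MlklKO against WT, CD-LFD).

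Leaving out 1 library gave called members, beside the share of all genes called, of 29 to 32 (WT CD-HFD against control, 43.8% to 51%), 17 to 26 (WT CD-LFD, 21.6% to 35.8%), 8 to 20 (WT CD-HFD against CD-LFD, 16.8% to 21.8%), 26 to 31 (Ripk3KO CD-HFD, 39.4% to 47%), 10 to 21 (Ripk3KO CD-LFD, 9.15% to 27.6%), 21 to 29 (MlklKO CD-HFD, 35.4% to 45.9%) and 18 to 21 (MlklKO CD-LFD, 28.9% to 38%). Between genotypes it gave 1 to 4 (Ripk3KO against WT on control, 2.65% to 6.9%), 10 to 12 (MlklKO against WT on control, 21% to 29.7%) and 1 to 2 (MlklKO against WT on CD-LFD, 1.2% to 2.95%). For interactions it gave 2 to 3 (MlklKO and CD-HFD, 1.22% to 8.52%), 6 to 11 (MlklKO and CD-LFD, 5.59% to 12.6%) and 0 to 1 (Ripk3KO and CD-HFD, 0.114% to 1.12%).

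Replicate numbers did not pair the libraries: over 146 same-number pairs the deviations from group means correlated at -0.349 to 0.545 (median -0.0114), 42 of them over 0.1, and 9 libraries correlated best with their own number. With a replicate block, 63 of 65 results kept direction and call (counts: within 1.5 times). The others were Ugt2b37 between Ripk3KO and WT on control (1.75 (adjusted p 0.0690)) and Ugt2b38 in WT on CD-LFD (-1.32 (adjusted p 0.0749)). Under the block 32 members were called in WT on CD-HFD, 22 on CD-LFD and 27 in Ripk3KO on CD-LFD, against 47.5%, 28.3% and 28.8% of all genes. In fits of the compared groups alone, calls were lost as well for Sult1c2 in WT on CD-HFD (0.78 (adjusted p 0.125)) and, in WT on CD-LFD, for Ugt1a1 (-1.33 (adjusted p 0.227)) and Ugt2b38 (-1.43 (adjusted p 0.0707)). Low counts limit Sult1e1, Sult2b1, Sult2a7 and Ugt2b37 in WT control.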
